A study of Mus musculus with 6 samples.

Results

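Interferon-stimulated genes are the antiviral effectors that cells switch on when type I interferon binds its receptor, and 35 of them were followed here in resting peritoneal macrophages of Zeb1 (+/-) and wild-type mice. They were chosen by symbol from a list of type I interferon-induced effectors, and all 35 were found among the 48709 genes of the table. The libraries came from untreated Zeb1 (+/-) mice and, as their controls, from untreated wild-type mice, both C57BL/6 and 6 to 8 weeks old, with 3 libraries per genotype. The macrophages were washed from the peritoneal cavity and sorted for F4/80 and CD11b, and each library pooled 2 mice, so the spread between single animals was not measured. The kind of Zeb1 allele is not given in the sources used here, and every library is from unstimulated cells.

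Type I interferons bind the receptor IFNAR1/IFNAR2, whose kinases JAK1 and TYK2 pass the signal on to factors that include STAT2 and IRF9. These are parts of the complex ISGF3, which binds the interferon-stimulated response element (ISRE) in the promoters of antiviral genes. Macrophages carry a low, constitutive level of many of these transcripts without infection, often called tonic interferon signalling. ZEB1 is a zinc-finger factor that binds E-boxes and mostly represses its targets.

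The interferon-stimulated response element could be read directly in the promoters. Of the 35 genes, 25 were found in the RefSeq promoter table of GRCm38.p6, with 32 start sites in all. Ifi27l2a, Oas2, Mx1, Parp14, Mx2, Usp18, Dhx58, Zbp1, Rtp4 and Ifi204 were not in it, so their promoters were not searched. Each window runs from 250 bases before to 50 after a start site. The letters searched were GAAA, any 2 bases and GAAA again, which read TTTC, any 2 bases and TTTC on the other strand. They stood in at least one window of 14 of the 25 genes (56.0%), against 3.99% of the 27025 genes of the table. A few stretches that end at the base before the start site are printed here, because they hold these letters and because their genes had a higher, a nearly equal or a lower mean in Zeb1 (+/-). The ISRE letters are in capitals, and matches that overlap appear as one run. The stretches lie at chr19:34640739-34640888 (plus strand) for Ifit1, chr19:34583369-34583528 (plus) for Ifit3, chr4:156200819-156200968 (minus) for Isg15, chr3:142559894-142560043 (plus) for Gbp3 and chr3:142620513-142620662 (plus) for Gbp2.
Ifit1: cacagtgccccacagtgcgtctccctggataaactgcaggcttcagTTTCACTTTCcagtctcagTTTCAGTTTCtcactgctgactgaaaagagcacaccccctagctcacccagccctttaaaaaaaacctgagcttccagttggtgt
Ifit3: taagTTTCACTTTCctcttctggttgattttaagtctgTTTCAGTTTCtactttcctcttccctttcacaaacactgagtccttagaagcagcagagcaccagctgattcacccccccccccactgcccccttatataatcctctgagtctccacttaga
Isg15: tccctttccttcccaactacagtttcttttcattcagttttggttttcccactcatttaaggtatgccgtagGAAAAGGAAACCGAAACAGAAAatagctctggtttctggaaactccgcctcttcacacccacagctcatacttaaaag
Gbp3: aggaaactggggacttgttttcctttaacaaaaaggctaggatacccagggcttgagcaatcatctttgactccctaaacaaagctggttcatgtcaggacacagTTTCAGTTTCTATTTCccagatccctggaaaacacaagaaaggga
Gbp2: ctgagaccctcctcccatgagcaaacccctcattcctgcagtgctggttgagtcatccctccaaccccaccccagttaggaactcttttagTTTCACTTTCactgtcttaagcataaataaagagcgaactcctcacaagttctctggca
Ifit1 and Ifit3 held 2 copies each in these letters, TTTCACTTTC and then TTTCAGTTTC. They began 104 and 85 bases before the start in Ifit1 and 156 and 122 bases before it in Ifit3. In Isg15 there were 3 overlapping matches between 78 and 57 bases before the start, and in Gbp3 a pair of overlapping matches between 45 and 30 bases before it. Gbp2 held 1 match, 59 to 50 bases before the start. All these positions count from RefSeq start sites, while the gene coordinates given below are from GENCODE and can start elsewhere. The GENCODE start of Gbp2, 142620602, lies inside its printed stretch and just before the match. The stretches of Ifit1 and Gbp3 also run past the GENCODE start, after their matches.

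The letters TTCNNNGAA of the gamma-activated sequence (GAS), which read the same on both strands, stood in windows of 9 of the 25 genes, against 9.55% of all genes of the table. In Bst2 and Ifitm3 a GAS match overlapped an ISRE match. The E-box letters CACCTG or CAGGTG, of the kind bound by ZEB1, stood in windows of 5 of the 25 genes (Bst2, Cmpk2, Isg20, Oasl2 and Rsad2), against 22.6% of all genes. These are matches of letters and not sites of measured binding.

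**Figure D1:**
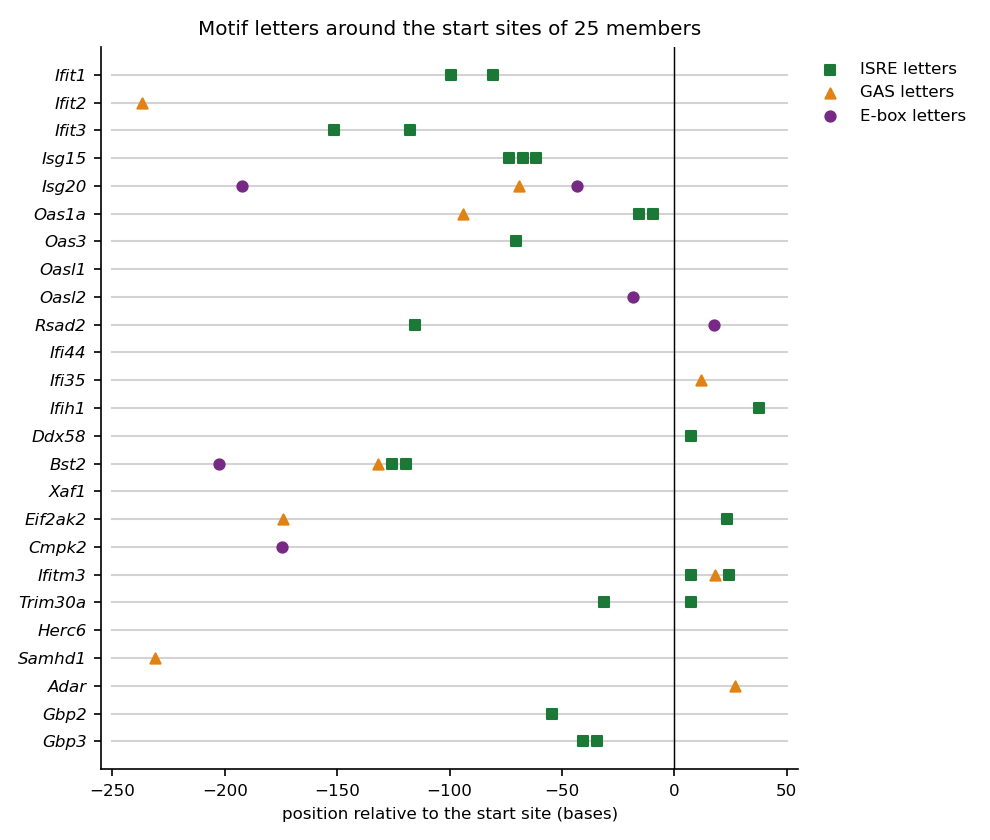
Positions of ISRE, GAS and E-box letters (horizontal axis, bases relative to the start site) in the promoter windows of the 25 matched genes, each a row; where a gene has several start sites they share a row. ISRE letters stand in 14 of the 25 genes and E-box letters in 5.

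The libraries held 17859872 to 42165006 counts. Values are given as CPM, counts scaled to the TMM-adjusted size of each library, so that 3 counts stand for 0.0709 to 0.168 CPM. Zeb1 itself, the check of the genotype labels, was at 3.85, 3.45 and 3.62 CPM in Zeb1 (+/-) replicates 1, 2 and 3, against 5.44, 7.56 and 7.22 CPM in wild-type replicates 1, 2 and 3 (log2 fold change −0.89 ± 0.16 SE, adjusted p = 0.0522 by edgeR). The groups did not overlap. All 11 macrophage markers, from Adgre1 (F4/80) and Itgam (CD11b) to Csf1r and Gata6, were detected and tested, with 0 past the threshold of an adjusted p of 0.05. Adgre1 had the smallest p of them, at 2618 ± 23.8 CPM in Zeb1 (+/-) and 2186 ± 38.6 CPM in wild-type macrophages (SD, n = 3 each), groups that did not overlap (log2 fold change 0.26, edgeR adjusted p = 0.111). Small structural RNAs summed to 43.6, 45.5 and 44.3 CPM in Zeb1 (+/-) libraries and to 4.14, 8.69 and 42.2 CPM in wild-type libraries. The low class thus held only wild-type replicates 1 and 2, and a fit with this class as a term sets the Zeb1 (+/-) libraries against wild-type replicate 3 alone.

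All 35 genes passed the filter on low counts and were tested. Their mean levels over the 6 libraries ran from 0.913 to 717 CPM, with 9 genes above 100 CPM, 18 between 10 and 100 CPM and 8 below 10 CPM. Per kilobase of exon, which allows genes to be compared, Ifitm3 stood highest at 1034 CPM per kb in Zeb1 (+/-) and 1081 in wild-type macrophages. IFITM3 sits in endosomal membranes and blocks the entry of enveloped viruses. Ifi27l2a followed at 217 and 306 CPM per kb and Bst2, the tether that holds budding virions at the cell surface, at 81.5 and 78.3. The lowest 5 were Mx2, Rsad2, Oasl1, Ifit2 and Ifi44, of which Mx2 stood highest at 2.01 and 2.18 CPM per kb. In CPM, Ifitm3 and Samhd1 together made up 38.4% of the summed level of the 35 genes.

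**Figure D2:**
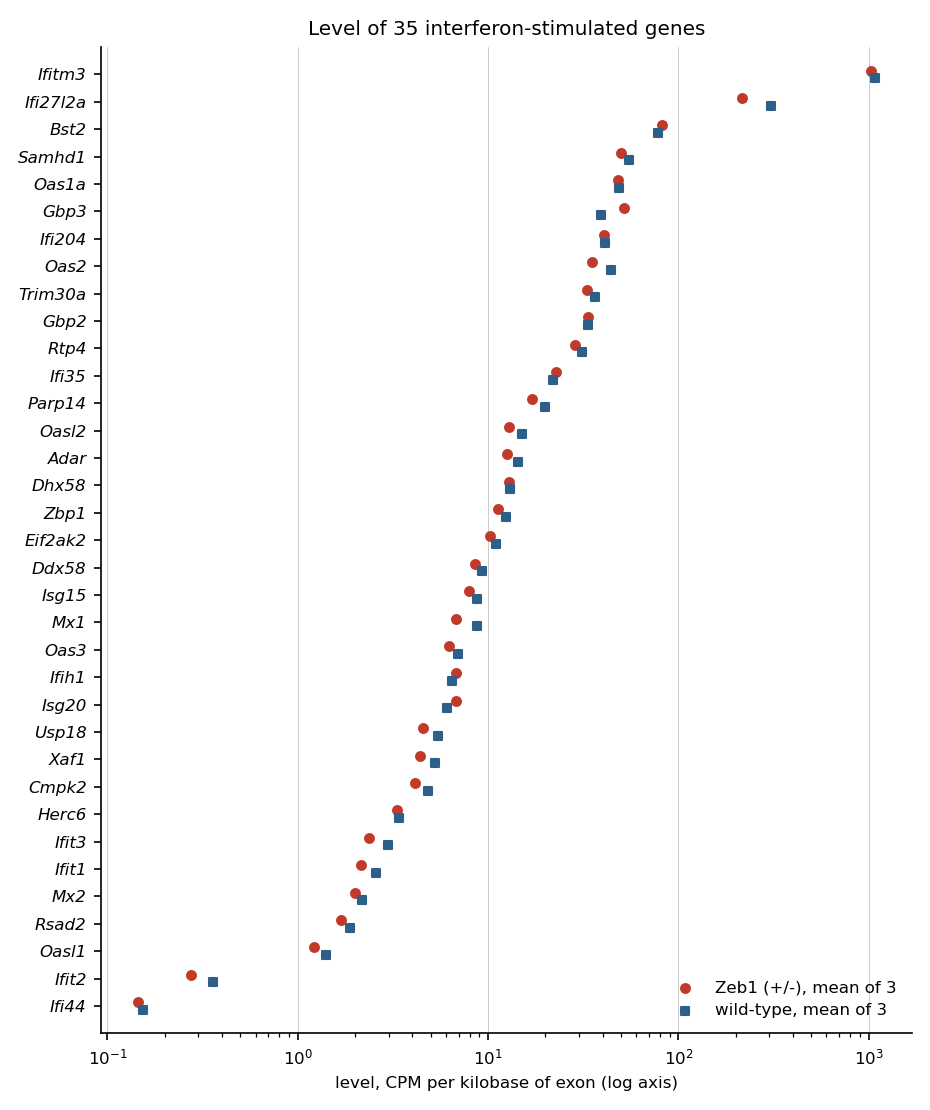
Mean level of each gene in Zeb1 (+/-) and wild-type macrophages (n = 3 each; CPM per kilobase of exon, log axis). Ifitm3 is highest at 1034 and 1081 CPM per kb, and the 2 genotypes lie close together beside the range between genes.

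The comparison of genotypes asked which of these genes differ in unstimulated macrophages when one copy of Zeb1 is lost. None of the 35 changed by the edgeR quasi-likelihood test adjusted over all 12940 tested genes, where 0.587% of genes passed (0.155% higher and 0.433% lower in Zeb1 (+/-)). The smallest adjusted p was 0.126. At an unadjusted p under 0.05 there were 6 of the 35 genes, beside 14.6% of all tested genes. Among the 6, Ifi27l2a, Oas2, Mx1, Xaf1 and Parp14 had the lower values in Zeb1 (+/-) (8.26% of all tested genes did so) and Gbp3 the higher (6.3%). DESeq2 passed 3 (Gbp3, Ifi27l2a and Oas2), where it passed 2.94% of the genes with an adjusted p, and limma-voom passed 0, where it passed 0.611% of all genes. The count of the list was 3 (Gbp3, Ifi27l2a and Mx1) without Zeb1 (+/-) replicate 3, where 0.972% of genes passed, and 4 (Gbp3, Oas2, Ifi27l2a and Mx1) without the low-count filter, where 2.47% passed. 

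The differences were small in size. No gene of the list reached 2-fold, and log2 fold changes, Zeb1 (+/-) over wild-type as throughout, ran from −0.49 to 0.41. The 95% confidence intervals of all 35 lay between −0.96 and 0.74, and those of 22 lay within 0.5 of 0. Log2 fold changes were below 0 for 29 of the 35 genes, where 50.1% of all tested genes were. The median was −0.14, beside −0.00038 for all tested genes. Leaving out single libraries moved that median most for Zeb1 (+/-) replicate 1 (to −0.067), wild-type replicate 2 (to −0.071) and Zeb1 (+/-) replicate 3 (to −0.23). With the structural-RNA class as a term it was −0.088, 21 of 35 were below 0 and 0 passed, where 0.24% of all genes did. Groups did not overlap for 7 genes, 6 of them lower in Zeb1 (+/-) (Ifi27l2a, Oas2, Mx1, Xaf1, Parp14 and Samhd1) and 1 higher (Gbp3), where 19.9% of all tested genes did not overlap (10.3% lower and 9.6% higher).

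**Figure D3:**
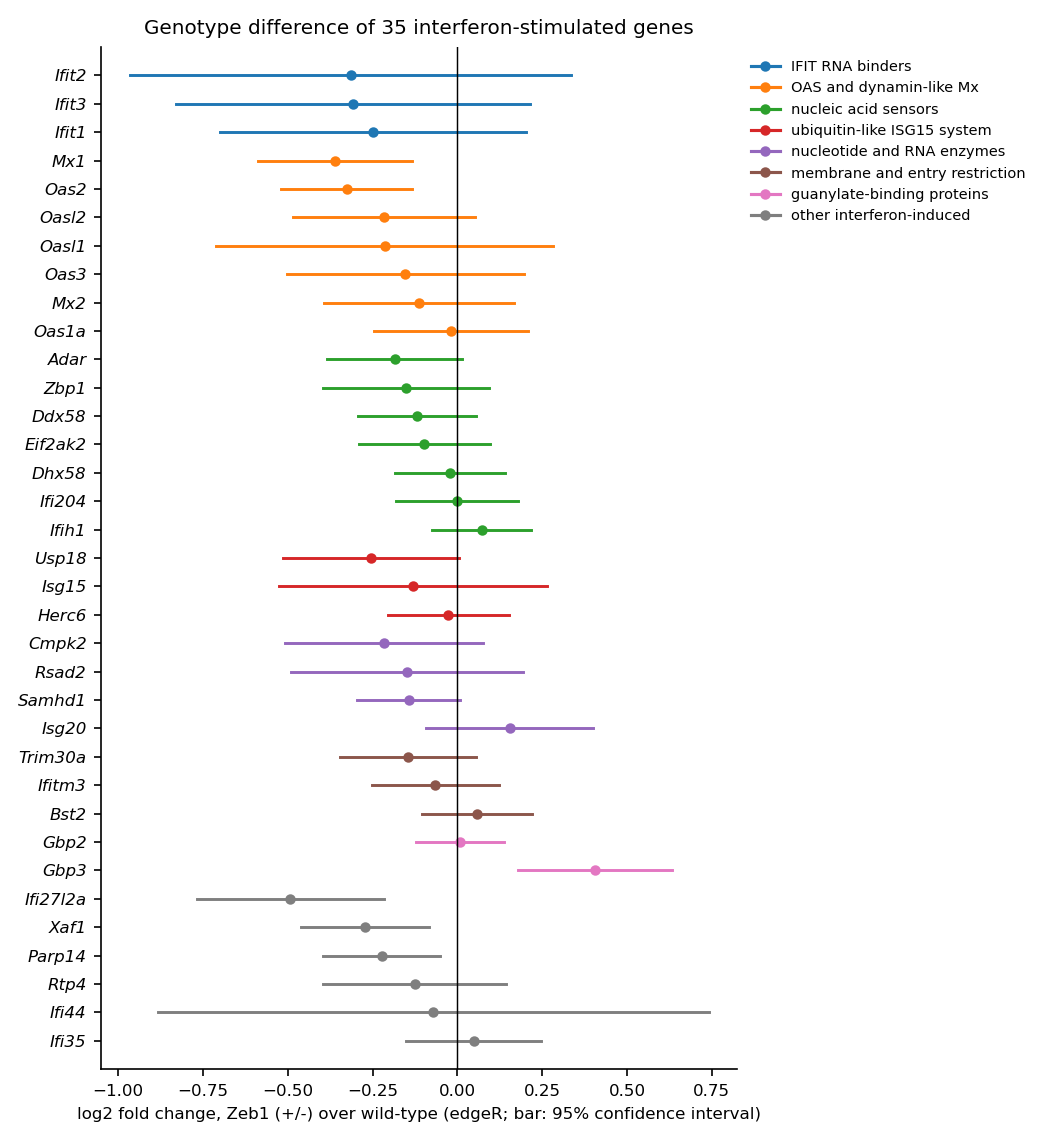
Log2 fold change of each gene, Zeb1 (+/-) over wild-type, with its 95% confidence interval from the edgeR fit, coloured by role. All 35 intervals lie between −0.96 and 0.74, and 29 of the 35 points are below 0.

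The guanylate-binding proteins, GTPases that attack the membranes of vacuoles holding pathogens, gave the highest log2 fold change of the list. Gbp3 (chromosome 3, 142560026 to 142573209, GRCm38) was at 187, 177 and 144 CPM in Zeb1 (+/-) replicates 1, 2 and 3, against 118, 134 and 130.5 CPM in wild-type replicates 1, 2 and 3. All 3 Zeb1 (+/-) values lay above all 3 wild-type values, with Zeb1 (+/-) replicate 3 nearest to them. The log2 fold change was 0.41 ± 0.10 (SE; interval 0.18 to 0.63; edgeR adjusted p = 0.126). Without Zeb1 (+/-) replicate 3 it was 0.51 (edgeR adjusted p = 0.0318). It was 0.37 with the structural-RNA class as a term and 0.50 with the level of B cell markers in the model. That level was lower in every Zeb1 (+/-) library than in every wild-type library, so this fit cannot cleanly separate it from genotype. The adjusted p over all alternatives ran from 0.00284 to 0.568. Its neighbour Gbp2 (chromosome 3, 142620602 to 142638008), whose promoter also carries the ISRE letters, was at 85.6, 85.5 and 82.8 CPM in Zeb1 (+/-) libraries and 84.6, 82.2 and 85.8 CPM in wild-type libraries. Gbp2 had the narrowest spread of the list, and its interval, −0.12 to 0.14 on the log2 scale, holds 0. The 6 Gbp genes on the list of interferon gamma-induced genes did not pass either, with overlapping groups and log2 fold changes of −0.27 (Gbp4), −0.034 (Gbp5), −0.13 (Gbp6), −0.024 (Gbp7), −0.10 (Gbp8) and −0.044 (Gbp9).

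Ifi27l2a (chromosome 12, 103442167 to 103443680), a small mitochondrial or nuclear membrane protein induced by interferon, gave the lowest log2 fold change of the list. It was at 84.9, 98.2 and 118 CPM in Zeb1 (+/-) replicates 1, 2 and 3 and at 156, 143 and 125 CPM in wild-type replicates 1, 2 and 3. The groups did not overlap, although Zeb1 (+/-) replicate 3 and wild-type replicate 3 came close. The log2 fold change was −0.49 ± 0.12 (SE; interval −0.77 to −0.22; edgeR adjusted p = 0.126). With the structural-RNA class as a term it was −0.32 and with B cell markers in the model −0.78, neither past the threshold. Without Zeb1 (+/-) replicate 3 it was −0.62 (adjusted p = 0.0448), and over all alternatives the adjusted p ran from 0.0025 to 0.645.

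**Figure D4:**
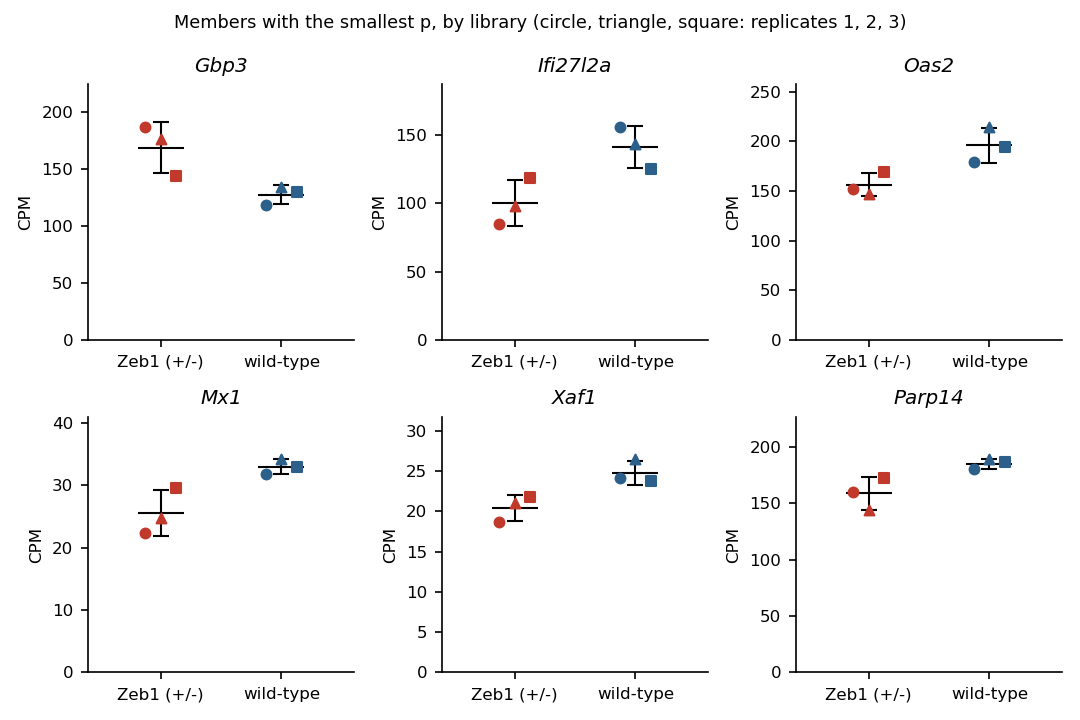
CPM of the 6 genes with the smallest p in each library of Zeb1 (+/-) and wild-type macrophages; bars give the mean and SD over 3 libraries. The groups do not overlap in any of the 6, Gbp3 is the one that is higher in Zeb1 (+/-), and none passed the adjusted threshold. The 6 were picked by p in these same libraries, and groups did not overlap for 19.9% of all tested genes.

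The oligoadenylate synthetases make the messenger that activates RNase L, and the Mx proteins are dynamin-like GTPases that trap viral nucleocapsids. All 7 genes of this group had log2 fold changes below 0, with a median of −0.21, and 0 passed. Oas2 (chromosome 5, 120730333 to 120749853) was at 152, 147 and 169 CPM in Zeb1 (+/-) libraries and 179, 214 and 194 CPM in wild-type libraries (log2 fold change −0.33 ± 0.09 SE, edgeR adjusted p = 0.14; 0.0272 to 0.55 over the alternatives). Mx1 (chromosome 16, 97447035 to 97462907) was at 22.4, 24.7 and 29.6 CPM in Zeb1 (+/-) libraries and 31.8, 34.1 and 33.0 CPM in wild-type libraries (−0.36 ± 0.10, adjusted p = 0.158; 0.0427 to 0.579 over the alternatives, and 0.0456 without Zeb1 (+/-) replicate 3). In both genes the groups stood apart, and in both Zeb1 (+/-) replicate 3 was the highest of its group. Mx2, which the table labels a polymorphic pseudogene, was at 6.53, 6.85 and 8.38 CPM in Zeb1 (+/-) libraries and 7.78, 7.81 and 8.07 CPM in wild-type libraries, so that its groups overlapped.

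The other synthetases showed overlapping groups. Oas3 was at 37.2, 42.1 and 53.1 CPM in Zeb1 (+/-) libraries and 40.4, 58.7 and 48.8 CPM in wild-type libraries. Oasl2, a synthetase-like protein, was at 72.2, 78.9 and 95.4 CPM in Zeb1 (+/-) libraries and 84.3, 108 and 94.3 CPM in wild-type libraries. Oasl1, which in mouse restrains translation of Irf7, was at 2.85, 2.62 and 4.05 CPM in Zeb1 (+/-) libraries and 3.42, 4.51 and 3.08 CPM in wild-type libraries. The log2 fold changes of these 3 were −0.15, −0.22 and −0.21. Oas1a was at 90.7 ± 13.4 CPM in Zeb1 (+/-) and 92.0 ± 4.28 CPM in wild-type macrophages (SD, n = 3 each), but 57.6% of its 50-base stretches also occur in Oas1g, so its counts are uncertain. Oas1g itself was at 30.1 ± 4.42 and 33.9 ± 4.76 CPM.

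The IFIT proteins bind viral RNA that lacks the host cap. All 3 had log2 fold changes below 0, with a median of −0.31, and 0 passed. Ifit1 (chromosome 19, 34640871 to 34650009) was at 4.75, 5.24 and 7.19 CPM in Zeb1 (+/-) libraries and 6.64, 8.38 and 5.42 CPM in wild-type libraries. Ifit2 (chromosome 19, 34550694 to 34576419) was at 0.670, 1.39 and 1.19 CPM in Zeb1 (+/-) libraries and 1.17, 1.63 and 1.43 CPM in wild-type libraries, or 12 to 59 counts per library. In both genes Zeb1 (+/-) replicate 1 was the lowest library and wild-type replicate 2 the highest, and the groups overlapped. Ifit3 (chromosome 19, 34583531 to 34588731) was at 2.96, 5.15 and 4.33 CPM in Zeb1 (+/-) libraries and 4.84, 6.64 and 4.14 CPM in wild-type libraries. Of its 50-base stretches 51.2% also occur in Ifit3b, so its level is uncertain. The intervals of the log2 fold change were −0.70 to 0.20 for Ifit1, −0.96 to 0.33 for Ifit2 and −0.83 to 0.21 for Ifit3. The structural-RNA class as a term turned the values of Ifit1 and Ifit3 to 0.092 and 0.033.

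Isg15, the ubiquitin-like protein that is attached to newly made proteins, was at 4.63, 5.86 and 7.49 CPM in Zeb1 (+/-) libraries and 6.73, 7.17 and 5.95 CPM in wild-type libraries. Its groups overlapped widely, with the lowest and the highest library both Zeb1 (+/-). Usp18, the protease that removes ISG15 and also dampens signalling at IFNAR2, was at 12.8 ± 1.11 and 15.2 ± 2.08 CPM in Zeb1 (+/-) and wild-type macrophages (log2 fold change −0.25, edgeR adjusted p = 0.35). Herc6, the ligase that attaches ISG15 in mouse, was at 30.9 ± 2.39 and 31.5 ± 1.68 CPM. Of the Herc6 stretches 12.5% are shared, nearly all with Gm45193, which overlaps it on the same strand.

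The 7 of the 35 genes grouped as nucleic acid sensors, with the editing enzyme Adar counted among them, had overlapping groups. Their median log2 fold change was −0.10, and 0 of 7 passed. Ifih1, which encodes the long double-stranded RNA sensor MDA5, was at 55.3 ± 1.69 CPM in Zeb1 (+/-) and 52.6 ± 2.41 CPM in wild-type macrophages (SD, n = 3 each). Ddx58, which encodes RIG-I, was at 60.3 ± 5.44 and 65.5 ± 2.51 CPM, and Dhx58, which encodes their regulator LGP2, at 42.0 ± 2.17 and 42.5 ± 2.39 CPM. Eif2ak2 (PKR), the kinase that stops translation on double-stranded RNA, was at 52.5 ± 5.03 and 56.2 ± 3.74 CPM. Its counterweight Adar, which edits double-stranded RNA of the host, was at 102 ± 9.12 and 116 ± 10.4 CPM (log2 fold change −0.19, edgeR adjusted p = 0.373). Zbp1, the sensor of Z-form nucleic acid that triggers necroptosis, was at 37.2, 40.7 and 41.0 CPM in Zeb1 (+/-) libraries and 42.6, 51.6 and 37.8 CPM in wild-type libraries. The DNA sensor gene Ifi204 was at 131, 149.7 and 156 CPM in Zeb1 (+/-) libraries and 138, 149 and 149.9 CPM in wild-type libraries, a log2 interval of −0.18 to 0.18. Of its stretches 14.8% also occur in Ifi211, so its counts are uncertain.

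Enzymes that act on nucleotides and RNA were led by Samhd1, which depletes the deoxynucleotide pool of resting myeloid cells. Samhd1 (chromosome 2, 157097533 to 157135265) was at 468, 452 and 447 CPM in Zeb1 (+/-) libraries and 469.8, 522 and 519 CPM in wild-type libraries. The groups stood apart only narrowly, since Zeb1 (+/-) replicate 1 and wild-type replicate 1 nearly met (log2 fold change −0.14 ± 0.07 SE, edgeR adjusted p = 0.363). Rsad2 (viperin), which makes a chain-terminating nucleotide, and Cmpk2, which supplies its substrate, are neighbours on chromosome 12. Rsad2 was at 7.27 ± 1.16 CPM in Zeb1 (+/-) and 8.12 ± 1.09 CPM in wild-type macrophages, and Cmpk2 at 17.3 ± 2.78 and 20.2 ± 2.54 CPM (SD, n = 3 each). Isg20, an exonuclease, was one of the few with a higher mean in Zeb1 (+/-), at 12.7 ± 0.661 and 11.3 ± 1.43 CPM, with overlapping groups (log2 interval −0.09 to 0.40).

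Of the proteins that act at membranes, Ifitm3 (chromosome 7, 141009586 to 141010770) was at 669, 692 and 743 CPM in Zeb1 (+/-) libraries and 743, 797 and 660.5 CPM in wild-type libraries. Wild-type libraries were both the highest and the lowest, and the log2 interval was −0.25 to 0.12. Of the Ifitm3 stretches 10.02% also occur in transcripts of other genes, 4.61% in Gm7676, so its counts are somewhat uncertain. Bst2 was at 73.6 ± 3.94 CPM in Zeb1 (+/-) and 70.8 ± 4.61 CPM in wild-type macrophages, and Trim30a, a ring-finger protein that dampens NF-kB signalling in mouse, at 136 ± 9.10 and 150.5 ± 15.8 CPM. For both the groups overlapped.

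Among the remaining genes, Parp14 (chromosome 16, 35832874 to 35871544), an ADP-ribosyltransferase, was at 159.6, 144 and 172 CPM in Zeb1 (+/-) libraries and 180.1, 189 and 186 CPM in wild-type libraries (log2 fold change −0.22 ± 0.08 SE, edgeR adjusted p = 0.239; 0.16 to 0.666 over the alternatives). Xaf1 (chromosome 11, 72301629 to 72313733), a proapoptotic partner of XIAP, was at 18.6, 21.0 and 21.8 CPM in Zeb1 (+/-) libraries and 24.1, 26.5 and 23.8 CPM in wild-type libraries (−0.27 ± 0.08, adjusted p = 0.191; 0.177 to 0.702 over the alternatives). In both every Zeb1 (+/-) library lay below every wild-type library. Rtp4, a receptor chaperone, was at 60.8 ± 10.6 and 66.5 ± 5.35 CPM, with 11.6% of its stretches shared with the overlapping gene Gm45338, and Ifi35 was at 39.3 ± 4.14 and 38.1 ± 2.21 CPM. Ifi44 was the lowest of the list in level, with 17, 30 and 33 counts in Zeb1 (+/-) libraries and 17, 35 and 20 counts in wild-type libraries, and its log2 interval was the widest, −0.88 to 0.74.

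Many of the 35 genes shared an order of libraries within each genotype. Zeb1 (+/-) replicate 3 was the highest of its genotype for 29 of the 35, where this held for 33.1% of all tested genes. Wild-type replicate 2 was the highest of its genotype for 27 of the 35, where this held for 32.9% of all tested genes. Over the 6 libraries, Zeb1 (+/-) replicate 1 was the lowest for 21 of the 35 (17.5% of all tested genes) and wild-type replicate 2 the highest for 22 (20.4% of all tested genes). Taken as the difference of log2 CPM from the mean over the 6 libraries, the median of the list was −0.18, −0.088 and 0.083 in Zeb1 (+/-) replicates 1, 2 and 3. In wild-type replicates 1, 2 and 3 it was 0.022, 0.20 and 0.045. Zeb1 (+/-) replicate 3 thus stood above 2 of the 3 wild-type libraries, and the groups overlapped. The same median over all tested genes stayed between −0.0015 and 0.0071 in every library. Summed over the list, the level was 2883, 2957 and 3177 CPM in Zeb1 (+/-) libraries and 3144, 3433 and 3122 CPM in wild-type libraries. The sum averaged 3005 ± 153 CPM in Zeb1 (+/-) and 3233 ± 174 CPM in wild-type macrophages (SD, n = 3 each). Zeb1 (+/-) replicate 1 also had the fewest counts of all libraries, 17859872, while wild-type replicate 2, with 28073386, lay inside the range of depths. The part of depth in this pattern was not tested.

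**Figure D5:**
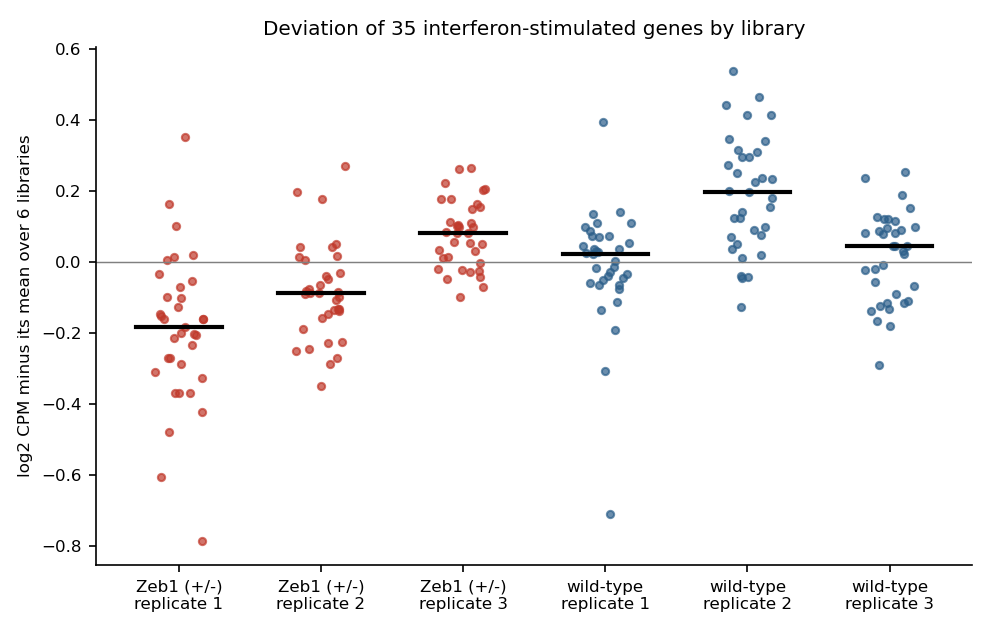
Difference of log2 CPM from its mean over the 6 libraries for each of the 35 genes (points), by library, with the median of the list as a bar. The medians run from −0.18 in Zeb1 (+/-) replicate 1 to 0.20 in wild-type replicate 2, and Zeb1 (+/-) replicate 3, at 0.083, lies above wild-type replicates 1 and 3.

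Upstream of these genes, the 9 type I and type III interferon genes of the list, among them Ifnb1, Ifna4 and Ifnl2, had 0 counts in all 6 libraries. At 3 counts per library this allows up to 0.0709 to 0.168 CPM each. The receptor genes were present: Ifnar1 was at 118 ± 14.6 CPM in Zeb1 (+/-) and 129.9 ± 9.83 CPM in wild-type macrophages. Ifnar2 was at 162.7, 178.9 and 166.1 CPM in Zeb1 (+/-) libraries and 158.7, 151.0 and 143.5 CPM in wild-type libraries, with all 3 Zeb1 (+/-) libraries above all 3 wild-type ones (log2 fold change 0.16, edgeR adjusted p = 0.317). Of the 7 receptor and kinase genes 0 changed, and Ifngr1, a chain of the interferon gamma receptor, had the smallest p. It was at 145.6, 137.8 and 142.1 CPM in Zeb1 (+/-) libraries and 166.2, 171.8 and 169.7 CPM in wild-type libraries, groups that did not overlap (log2 fold change −0.26, edgeR adjusted p = 0.102).

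Of the 10 STAT and IRF genes 0 changed, with a median log2 fold change of −0.096. Stat2, the ISGF3 subunit that carries the activation domain, had the smallest p. It was at 51.4, 57.2 and 61.1 CPM in Zeb1 (+/-) libraries and 63.9, 77.8 and 73.1 CPM in wild-type libraries, groups that did not overlap (log2 fold change −0.34 ± 0.09 SE, edgeR adjusted p = 0.153). Irf9, the subunit that contacts DNA, was at 93.8 ± 7.33 and 99.2 ± 1.66 CPM in Zeb1 (+/-) and wild-type macrophages (SD, n = 3 each), with overlapping groups. Of the 12 sensing adaptors and receptors 0 changed. Tlr9, the receptor for unmethylated DNA, had the smallest p, at 2.53 ± 0.375 CPM in Zeb1 (+/-) and 4.13 ± 0.311 CPM in wild-type macrophages (log2 fold change −0.73, adjusted p = 0.102). Of the 9 negative regulators 0 changed, and Trex1, the nuclease that clears cytosolic DNA, had the smallest p (55.4, 55.8 and 61.5 CPM in Zeb1 (+/-) libraries and 67.5, 72.9 and 64.9 CPM in wild-type libraries; log2 fold change −0.25, adjusted p = 0.174).

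Further genes induced by interferon gave the same count. Of 51 other type I interferon-induced genes 45 were tested and 0 changed, with 5 at an unadjusted p under 0.05 (14.6% of all tested genes were) and a median log2 fold change of −0.067. This list also holds Stat2, which had its smallest p. Of 19 genes that respond mainly to interferon gamma 15 were tested and 0 changed, with a median of −0.093. There Ciita, the activator of MHC class II genes, had the smallest p, at 21.7, 20.2 and 21.6 CPM in Zeb1 (+/-) libraries and 34.0, 37.2 and 26.8 CPM in wild-type libraries (log2 fold change −0.64 ± 0.11 SE, edgeR adjusted p = 0.0503). Cxcl10, a chemokine that marks strong interferon responses, was at 0.387 ± 0.162 and 0.630 ± 0.329 CPM in Zeb1 (+/-) and wild-type macrophages.

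Markers of other cells were read beside these genes. In bulk libraries, fewer cells of a type and less RNA per cell cannot be told apart. The 12 B cell markers were all detected and summed to 159 to 187 CPM in Zeb1 (+/-) libraries and 205 to 359 CPM in wild-type libraries. Bank1 alone was at 67.5 to 82.3 CPM in every library. The median log2 fold change of the 12 was −0.93, and 9 of them had every Zeb1 (+/-) library below every wild-type library. None passed the adjusted threshold, and 9 had an unadjusted p under 0.05, where 14.6% of all tested genes did. Blk, a kinase of the B cell receptor pathway, had the smallest p, at 2.68, 2.46 and 1.95 CPM in Zeb1 (+/-) libraries and 4.48, 3.87 and 6.85 CPM in wild-type libraries (log2 fold change −1.09 ± 0.24 SE, edgeR adjusted p = 0.0895). The mean log2 CPM of the 12 markers, less its mean over the 6 libraries, was −0.24, −0.36 and −0.55 in Zeb1 (+/-) libraries. In wild-type libraries it was 0.17, 0.0052 and 0.97. With this level in the model, the median log2 fold change of the 35 genes was −0.27, beside −0.14 without it. Of the 35 genes 0 passed, where 0.0309% of all genes did. The level itself did not overlap between genotypes, so this fit cannot cleanly separate it from genotype. Plasmacytoid dendritic cells, strong makers of interferon, were near the floor: Klk1 had 0 counts in all libraries and Siglech a single count, in a wild-type library, while Bst2, a member of the list, Tcf4 and Ly6d are shared with other cells. The 7 markers summed to 134 to 141.5 CPM in Zeb1 (+/-) and 142 to 147 CPM in wild-type libraries, and Ly6d had the smallest p (log2 fold change −0.91, edgeR adjusted p = 0.172). Monocyte markers summed to 379 to 419.8 CPM in Zeb1 (+/-) and 480.1 to 525 CPM in wild-type libraries, and 1 of the 5 tested, Ccr2, fell (log2 fold change −0.62, adjusted p = 0.00897). Dendritic cell markers summed to 66.8 to 106 CPM in Zeb1 (+/-) and 79.3 to 101 CPM in wild-type libraries. Of these sums Cd209a alone made up 53.8 to 86.9 and 62.8 to 75.7 CPM. Of the 6 tested 0 passed the threshold, and Dpp4 had the smallest p (edgeR adjusted p = 0.315). Their median log2 fold change was −0.32, and 2 had an unadjusted p under 0.05, where 14.6% of all tested genes did. Markers of T and NK cells summed to 1.64 to 2.01 CPM in Zeb1 (+/-) and 1.49 to 3.25 CPM in wild-type libraries, with Cd4 at the smallest p (adjusted p = 0.747). Those of neutrophils summed to 1.95 to 3.33 and 1.81 to 2.10 CPM (Mmp8, adjusted p = 0.39), and those of eosinophils and mast cells to 1.84 to 3.24 and 1.44 to 3.35 CPM, with 2 of 7 at 0 (Siglecf, adjusted p = 0.605). Mesothelial and fibroblast markers summed to 0.279 to 0.543 and 0.372 to 1.42 CPM, with none tested. Erythroid and platelet markers summed to 427 to 726 CPM in Zeb1 (+/-) and 529.8 to 748 CPM in wild-type libraries, of which the platelet gene Pf4 made up 424 to 677 and 492 to 553.5 CPM. The haemoglobin gene Hba-a1 had the smallest p, at 0.838, 5.39 and 8.71 CPM in Zeb1 (+/-) libraries and 41.3, 7.70 and 6.37 CPM in wild-type libraries (log2 fold change −1.83, edgeR adjusted p = 0.317). Zeb1 (+/-) replicate 1 was the lowest library and wild-type replicate 1 the highest for it, as for Hba-a2, Hbb-bs and Hbb-bt. The part of monocyte and other cells in the values of the interferon-stimulated genes was not tested.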

How the data were processed

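The authors deposited expected counts per gene for 6 libraries, and STAR, RSEM and edgeR on GRCm38 are named for making them per the submitters' processing notes. Versions, the annotation release and the strand setting are not given in the sources used here. All deposited values were whole numbers. Per the labels' protocols, RNAzol served for RNA isolation and the mRNA kit keeps strand. Columns were mapped by the identifier in each sample's description.

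The 35 genes and all lists were chosen with earlier results of these data known. Genes were kept by filterByExpr (minimum count 10, minimum total 15), which left 12940. Counts were scaled by TMM and Zeb1 (+/-) was compared with wild-type in edgeR 4.0.16 (glmQLFit, glmQLFTest) in R 4.3.3, with Benjamini-Hochberg adjustment over all tested genes and a threshold of 0.05. The SE is the log2 fold change divided by the square root of F. Nothing in the labels pairs the Set numbers across genotypes, so they are not in the model. The labels give the libraries as separate pools of mice. Values in each library are given for the 6 genes with the smallest p, the 6 with the highest level and the 6 with the widest range, and for other members that illustrate their group. The other lists give their members past the threshold or the one with the smallest p, and further genes are examples chosen after their values were seen. DESeq2 1.42.0, limma-voom (limma 3.58.1) and the other alternatives are in the closing section. Coordinates and exon lengths are from GENCODE on GRCm38. Shared sequence was read as the share of 50-base stretches of a gene's transcripts found in transcripts of other genes. It exceeded 10% for 6 of the 35 genes. A further limit is that 11 of the 35 overlap a gene on the opposite strand, whose reads cannot be told apart without a stated strand setting.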

Additional observations from a re-analysis of the deposited data

How the results depend on the processing

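The count of changed interferon-stimulated genes was 0 in the main analysis and 0 to 3 with 1 library left out (3 without Zeb1 (+/-) replicate 3). It was 3 by DESeq2, 4 with no low-count filter and 6 at an unadjusted p under 0.05, a setting chosen after seeing the data. It stayed 0 with RLE size factors, at least 1 CPM in at least 3 libraries, robust moderation, limma-voom, an adjusted p under 0.1, the structural-RNA class as a term and B cell markers in the model. The median log2 fold change of the list was −0.14, and −0.23 to −0.067 with 1 library left out. It moved beyond the spread between replicates (0.117) only with B cell markers in the model (−0.27) among the alternatives run. The B cell level did not overlap between genotypes, so that fit cannot cleanly separate it from genotype. The count of changed genes over the whole table, 76, was 214 at an adjusted p under 0.1, 522 with no low-count filter, 351 by DESeq2, 31 with the structural-RNA class, 4 with the B cell mean and 5 (without wild-type replicate 2) to 127 (without Zeb1 (+/-) replicate 3) with 1 library left out. The cause of these moves was not tested.

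With the Set number as a replicate block 15 genes and 0 interferon-stimulated genes changed. Deviations of same-numbered libraries from their genotype means had correlations of −0.25, −0.0345 and −0.174 across genes. Those of differently numbered libraries ran from −0.0863 to 0.273. With 3 libraries per genotype, these values cannot decide whether the Set numbers pair the samples.

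Of 524 log2 fold changes of single genes under the alternatives, 478 kept their direction and side of the threshold, 10 passed it newly and 36, over 16 genes, changed sign. The structural-RNA class as a term gave 0.040 for Trim30a, 0.071 for Zbp1, 0.033 for Ifit3, 0.092 for Ifit1, 0.047 for Oasl1, 0.086 for Ifitm3, 0.029 for Isg15, 0.013 for Dhx58, 0.054 for Oas1a and −0.020 for Gbp2. The B cell mean gave −0.047 for Isg20, −0.060 for Bst2, −0.10 for Ifi35 and 0.0088 for Herc6. Ifi204 was at 0.0025 with RLE size factors, 0.0029 by DESeq2 and 0.019 with no low-count filter, which gave 0.0010 for Oas1a. Limma-voom gave 0.017 for Ifi44. With 1 library left out, log2 fold changes ran from −0.052 to 0.028 for Dhx58, −0.0088 to 0.027 for Gbp2, −0.090 to 0.018 for Herc6 and −0.050 to 0.076 for Ifi204. They ran from −0.017 to 0.13 for Ifi35, −0.40 to 0.23 for Ifi44, −0.32 to 0.0093 for Isg15 and −0.13 to 0.079 for Oas1a. At least 1 CPM in at least 3 libraries left Ifi44 untested. Low counts limit Ifit2 and Ifi44 most, where 1 library held as few as 12 and 17 counts.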
